A study of Arabidopsis thaliana with 8 samples.

Results

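Late embryogenesis abundant (LEA) proteins of group 4 were followed at the transcript level in germinating Arabidopsis thaliana seedlings, through 9 genes: AT3G17520, AT3G53040, AT4G21020, AT4G36600, AT2G42560, AT5G44310, AT3G15670, AT2G18340 and AT1G72100. A gene was taken where the platform annotation assigned a probe set to it alone, and all 9 listed genes had 1 such probe set, so 9 of the 22246 probe sets on the array, and 9 of the 12849 genes named by a probe set of their own, are described. Total RNA from seedlings was hybridised to 8 one-colour arrays, in 4 groups of 2, labelled replicate 1 and 2. Columbia wild type was germinated without abscisic acid (ABA), and Columbia wild type and the ahg1-1 and ahg3-1 mutants, both labelled ABA hypersensitive, were germinated on 0.5 uM ABA. All seeds were chilled for 4 days at 4 °C and then germinated for 2 days at 23 °C in days of 16 h light and 8 h dark; the MS medium held 2% sucrose. The 2 mutations lie in different genes for protein phosphatases of type PP2C. No group of mutant seedlings without ABA was analysed here, so the mutant comparisons concern seedlings on ABA, and AHG1 and AHG3 themselves were not analysed here.

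LEA proteins accumulate late in seed maturation, when the embryo loses water, and are lost again as the seedling grows. Those of group 4 carry many copies of a short repeated motif, are largely unfolded in solution and take on helical structure when they dry, and they are known for protecting enzymes and membranes during desiccation. ABA, the hormone that delays germination, induces many LEA genes in seeds, while PP2C phosphatases restrain ABA signalling. The roles of the single genes described here are less well defined than that of the group, and the files name them by locus only.

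The values are log2 expression on an RMA scale, where a difference of 1 stands for a 2-fold signal. Levels of different genes are not compared, since each comes from its own probes. Across the 8 arrays the medians of all probe sets lay between 5.91 and 5.97. Arrays with the same replicate number deviated together from their group means, with correlations between 0.50 and 0.84 across probe sets in the 6 pairs of groups. Whether both arrays of a group came from separate plates or seed batches is not stated in the labels, so the p-values reflect the spread of these arrays alone, and that spread may be technical.

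All 9 LEA genes were higher on every array with ABA than on either array without it; in wild type both ABA arrays lay above both others for 9 of 9, against 18.4% of all probe sets, and within both replicates for 9 of 9, against 38.5%. In wild type 7 of the 9 rose with ABA (limma, adjusted p below 0.05 over all probe sets), against 0.692% of all probe sets called as higher and 1.37% called in either direction, and 0 fell. The other 2, AT2G42560 and AT2G18340, did not pass. At an unadjusted p below 0.05 lay 9 of 9 on the higher side, against 6.18% of all probe sets. The median difference of the 9 genes was 5.73 on the log2 scale, against 0.05 over all probe sets, and single genes lay between 9.83-fold and 102-fold. Without ABA the mean of the 9 was 4.41 and 4.81, below the medians of all probe sets on those arrays (5.91 and 5.97). Folds from so low a signal are uncertain in size. Since the genes were chosen with earlier results of these data known, these counts and medians describe them and are not a test of the group.

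**Figure D1:**
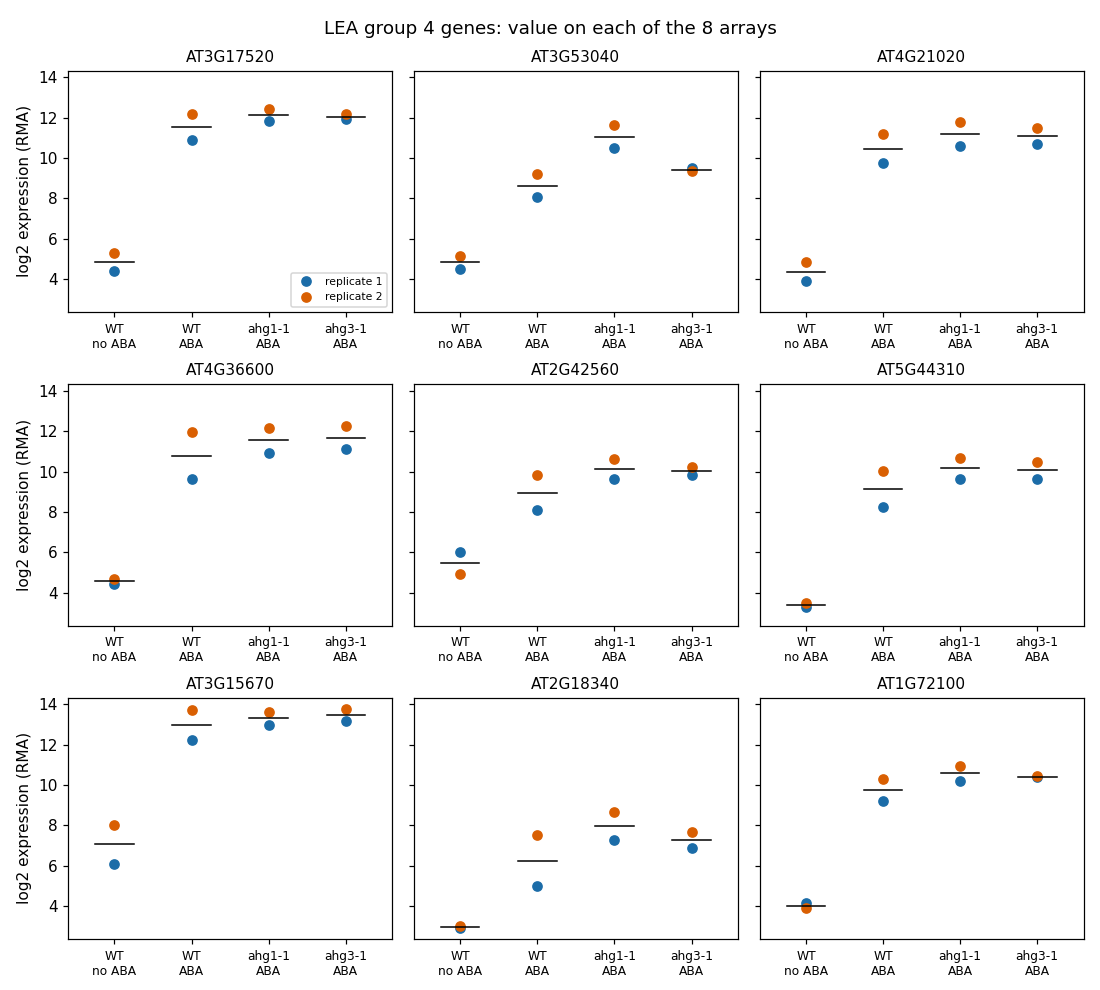
Log2 expression (RMA, vertical axis) of the 9 LEA genes on each of the 8 arrays, by group (horizontal axis), with replicate 1 in blue, replicate 2 in orange and the group mean as a black line. For every gene the 6 ABA arrays lie above both arrays without ABA, and wild type on ABA replicate 1 is the lowest of the 6.

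AT3G17520 had the largest difference with ABA. Without ABA its values were 4.41 and 5.32 on replicates 1 and 2, and in wild type with ABA they were 10.89 and 12.19. The rise of 6.67 ± 0.50 (log2, SE of the fit, n = 2 arrays per group) was the rise ranked 6 among all 22246 probe sets (limma, adjusted p = 0.00365). The lowest of the 6 ABA arrays stood 5.57 above the higher of the arrays without ABA, the widest such gap among the 9 genes. Within replicate 1 the difference was 6.47 and within replicate 2 it was 6.87.

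AT1G72100 had the smallest standard error of the 9. It stood at 4.14 and 3.89 without ABA and at 9.20 and 10.29 with it. Both arrays with ABA lay far above both without it, and the rise was 5.73 ± 0.41 (limma, adjusted p = 0.00295). AT3G17520 and AT1G72100 were the 2 genes that stayed called in all 8 fits that left out 1 array and in a fit to the 4 wild-type arrays alone.

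AT4G21020 and AT5G44310 rose by similar amounts. AT4G21020 went from 3.89 and 4.84 without ABA to 9.75 and 11.19 with it, a rise of 6.10 ± 0.63 (limma, adjusted p = 0.0109). AT5G44310 went from 3.31 and 3.502 to 8.22 and 10.03, a rise of 5.72 ± 0.64 (limma, adjusted p = 0.0140). In both genes replicate 2 was the higher array of each group. Each kept its call in 6 of the 8 fits without 1 array, and lost it without either array of the group lacking ABA.

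AT4G36600 rose unevenly in the replicates. Its values without ABA were close together, at 4.43 and 4.68, while with ABA they were 9.64 and 11.95. The rise was 6.24 ± 0.81 (limma, adjusted p = 0.0222), at 5.20 within replicate 1 and 7.27 within replicate 2. The call held in 1 of the 8 fits without 1 array, the fit without wild type on ABA replicate 1, in which the difference was 7.40.

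AT3G15670 was the gene with the least even values without ABA, at 6.10 and 8.02. With ABA it stood at 12.26 and 13.75, and on replicate 2 the highest value of any probe set was 13.82. The gene therefore lay near the top of the scale on the ABA arrays, where differences between arrays can be compressed. Its rise was 5.94 ± 0.73 (limma, adjusted p = 0.0187), and the call held in 2 of the 8 fits without 1 array.

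AT3G53040 rose less than the other called genes. It stood at 4.51 and 5.16 without ABA and at 8.07 and 9.20 with it. Both ABA arrays lay above both arrays without it by at least 2.91. The rise was 3.80 ± 0.51, or 13.9-fold (limma, adjusted p = 0.0241), at 3.56 within replicate 1 and 4.04 within replicate 2. The call held in 3 of the 8 fits without 1 array.

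The 2 genes that did not pass had the smallest differences. AT2G42560 stood at 6.01 and 4.91 without ABA, here with replicate 1 the higher, and at 8.08 and 9.85 with ABA, a difference of 3.502 ± 0.66 (limma, adjusted p = 0.0681). AT2G18340 stood at 2.91 and 3.01 without ABA, near the minimum over all probe sets there (2.44 and 2.42), and at 5.01 and 7.51 with it. Its difference was 3.30 ± 0.83 (limma, adjusted p = 0.140), and because the lower values lie at the bottom of the scale the size of that difference is uncertain. In both genes the difference within replicate 2 was more than that within replicate 1: 4.94 against 2.07 for AT2G42560 and 4.497 against 2.10 for AT2G18340. With the replicate number as a block both passed (limma, adjusted p = 0.00887 and 0.00598), so that 9 of 9 were called as higher, against 6.1% of all probe sets.

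How many of the 9 genes were called turned on which array was left out. Leaving out replicate 1 of wild type on ABA gave 9 and leaving out its replicate 2 gave 4. Leaving out replicate 1 or 2 of wild type without ABA gave 2 or 3, any one ahg1-1 array 5 and any one ahg3-1 array 4. A fit to the 4 wild-type arrays gave 2. All 9 differences stayed above 0 in each of these fits, and the lowest value in any of them was 2.05, for AT2G18340.

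**Figure D2:**
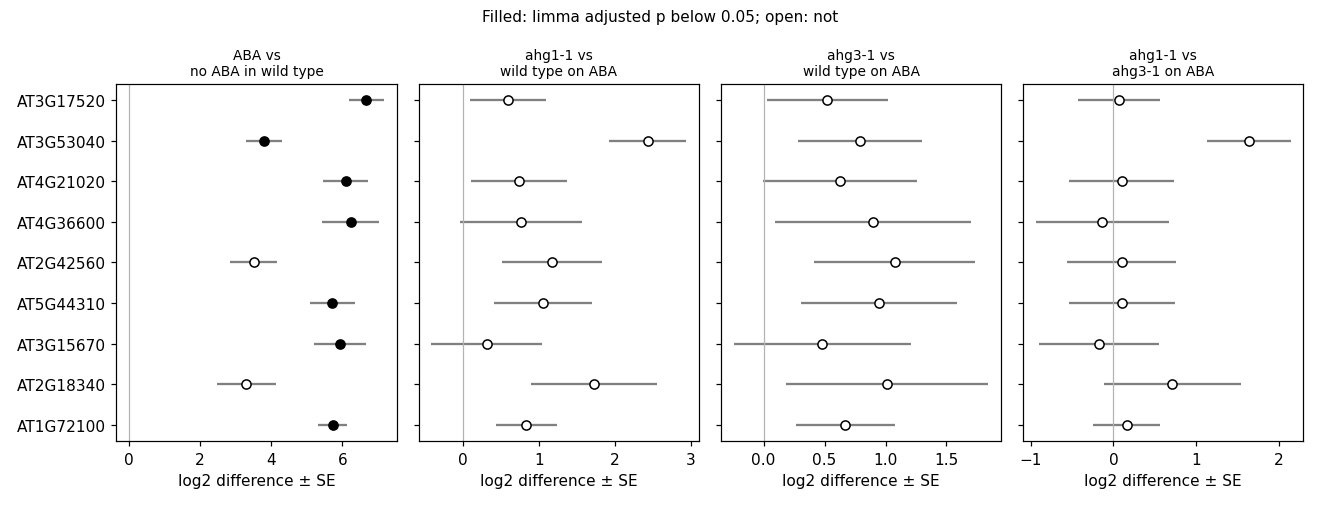
Log2 differences (horizontal axis, points, with the SE of the limma fit as bars) of the 9 LEA genes (vertical axis) in the 4 comparisons, filled where the adjusted p was below 0.05. Differences with ABA lie between 3.30 and 6.67, while those between the mutants and wild type on ABA lie between 0.31 and 2.43.

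LEA genes outside these 9 did not all behave alike with ABA. Of 10 other genes listed for group 4, 7 had a probe set of their own. Of these 1 rose, against 0.692% of all probe sets called as higher, 0 fell and 6 did not pass. Their median difference was 0.17. The one that rose was AT3G02480, from 7.57 and 9.29 without ABA to 13.03 and 13.82 with it. Its rise was 4.99 ± 0.57 (limma, adjusted p = 0.0146), and the value on replicate 2 was the highest on that array, so the rise may be compressed at the top of the scale. COR15A, which encodes a small chloroplast protein that protects membranes in the cold, differed by 1.11 ± 0.29 and COR15B by -0.20 ± 0.24. The other 4, AT5G38760, AT4G13230, AT2G03850 and AT2G03740, differed by between -0.06 and 0.19 and stood between 2.88 and 5.39 on all 8 arrays. This list was also written with earlier results known, so the contrast between it and the 9 genes is no test of a split within the group.

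AT2G42560 lies next to the COR15 pair on chromosome 2, with 1 protein-coding gene between it and COR15A in the TAIR10.1 gene order. Across the 3 neighbours the differences with ABA were 3.502, 1.11 and -0.20, for AT2G42560, COR15A and COR15B in turn. Only COR15A and AT2G42560 passed with the replicate number as a block (limma, adjusted p = 0.0122 and 0.00887). The remaining 8 genes were spread over chromosomes 1 to 5, and at least 79 protein-coding genes lay between each of them and the nearest listed LEA gene.

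LEA genes of other groups gave a mixed picture. Groups here go by protein domain, so that gene symbols such as AtLEA4-1, which follow another naming, do not place a gene in group 4. Of 32 listed, 19 had a probe set of their own. Of these 7 rose, against 0.692% of all probe sets called as higher, 0 fell and 12 did not pass. The median was 1.99. LEA18 had the largest rise, at 6.31 ± 0.93 (limma, adjusted p = 0.0330). The dehydrin gene AT2G21490 rose by 5.87 ± 0.59 (limma, adjusted p = 0.0103) and AtLEA4-1 by 5.84 ± 0.85 (limma, adjusted p = 0.0322). COR47, a dehydrin of the cold response, had the lowest value of the list, at -1.16 ± 0.58, and did not pass (limma, adjusted p = 0.526). Its difference was 0.24 within replicate 1 and -2.56 within replicate 2.

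**Figure D3:**
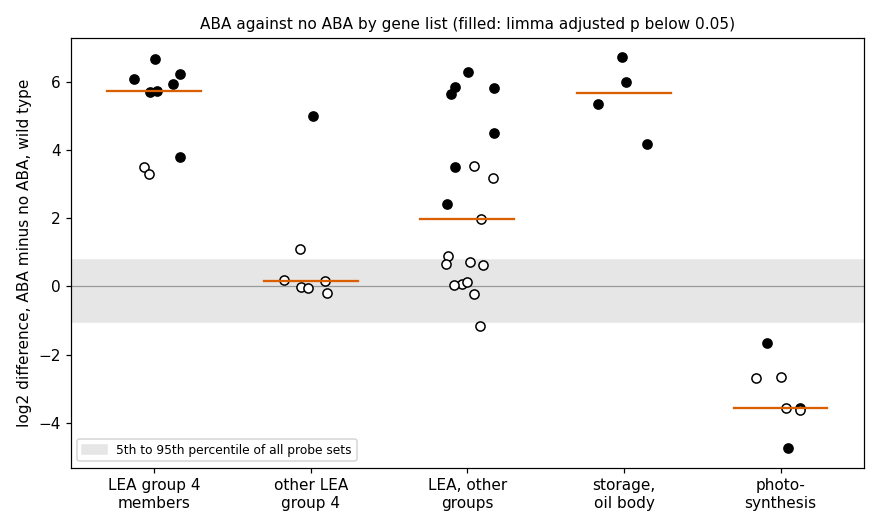
Log2 difference between wild type with and without ABA (vertical axis) for each measured gene of 5 lists (horizontal axis), filled where limma's adjusted p was below 0.05, with list medians as orange lines and the range from the 5th to the 95th percentile of all probe sets (-1.04 to 0.77) in grey. The 9 LEA genes have a median of 5.73, the 7 other group 4 genes one of 0.17 and the 7 photosynthesis genes one of -3.56.

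Of the genes that mark the stage of germination, those for seed storage moved with the LEA genes and those for photosynthesis moved the other way. Of 15 listed genes for seed storage and oil bodies 4 were measured. All 4 rose with ABA, against 0.692% of all probe sets called as higher. Their mean level was 5.06 and 5.31 on the arrays without ABA and 10.03 and 11.48 in wild type with ABA. In the mutants it was between 11.37 and 12.16. Of 7 measured nuclear photosynthesis genes, of 32 listed, 3 fell, 0 rose and 4 did not pass, against 0.679% of all probe sets called as lower. With a block for the replicate number 7 of 7 fell, against 6.48% of all probe sets. Their mean level was 12.20 and 11.74 without ABA, 9.74 and 7.78 in wild type with ABA, and between 6.81 and 7.88 in the mutants. The part of germination stage in the LEA values was not tested. In seedling RNA a smaller share of cells with a transcript and less of that transcript per cell cannot be told apart. Markers of the endosperm had 0 of 3 members measured. Of 5 listed seed coat genes the measured one, BAN, an anthocyanidin reductase, stood between 5.33 and 6.29 on all 8 arrays. The 2 measured reference genes of 7 listed, AT4G34270 and AT2G28390, were not level over the arrays. Their mean level was 7.43 and 7.68 without ABA, 7.57 and 8.08 in wild type with ABA, and between 7.95 and 8.25 in the mutants.

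In ahg1-1 against wild type, both on ABA, 0 of the 9 LEA genes passed (limma, lowest adjusted p = 1.0 after rounding), against 0% of all probe sets. All 9 means were higher in ahg1-1, with a median difference of 0.83 against 0.01 over all probe sets, and 8 of 9 were higher within both replicates, against 31.3% of all probe sets. At an unadjusted p below 0.05 lay 1 of the 9, AT3G53040, against 0.859% of all probe sets on the higher side. With a block for the replicate number, 0 of 9 passed as well (limma, lowest adjusted p = 0.117), against 0.0135% of all probe sets, with 6 of the 9 at an unadjusted p below 0.05, against 5.08% of all probe sets on the higher side in that fit.

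AT3G53040 had the largest difference in ahg1-1 among the 9 genes. Wild type on ABA stood at 8.07 and 9.20 and ahg1-1 at 10.49 and 11.64, so that both mutant arrays lay above both wild-type arrays. For the 8 other genes the arrays of the 2 groups overlapped; over all probe sets 11% had no overlap with ahg1-1 higher. The difference was 2.43 ± 0.51, or 5.39-fold, with a 95% interval of 1.22 to 3.64 that is not adjusted for the number of probe sets. It ranked 10 among the higher values of all probe sets in this comparison, yet its adjusted p rounds to 1.0 (limma).

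The 8 other genes had smaller differences in ahg1-1, between 0.31 and 1.72. AT2G18340 came next, with 5.01 and 7.51 in wild type and 7.29 and 8.67 in ahg1-1, a difference of 1.72 ± 0.83. AT2G42560 stood at 8.08 and 9.85 in wild type and 9.66 and 10.62 in ahg1-1, a difference of 1.17 ± 0.66. In these 2 genes the lower ahg1-1 array lay below the higher wild-type array.

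AT5G44310 stood at 9.65 and 10.70 in ahg1-1, a difference of 1.05 ± 0.64, and AT1G72100 at 10.20 and 10.96, a difference of 0.83 ± 0.41. AT4G36600, at 10.93 and 12.18, differed by 0.76 ± 0.81 and AT4G21020, at 10.62 and 11.78, by 0.73 ± 0.63. AT3G17520, at 11.82 and 12.43, differed by 0.59 ± 0.50. AT3G15670, near the top of the scale, stood at 12.99 and 13.62 and differed by 0.31 ± 0.73, at 0.74 within replicate 1 and -0.12 within replicate 2. The 95% intervals of all 8 genes, from the fit without a block, included 0, and their upper bounds lay between 1.77 and 3.70. With the replicate number as a block the median SE of the 9 genes was 0.32, against 0.64 without it.

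Replicates 1 and 2 gave unlike differences for most of the 9 genes. The 8 genes other than AT3G53040 had a median of 1.15 within replicate 1 and 0.63 within replicate 2. For AT3G53040 the differences were 2.42 and 2.44. Wild type on ABA replicate 1 was the lowest of the 6 ABA arrays for 9 of 9 genes, and replicate 2 of that group stood above it by between 1.09 and 2.50. On the same 2 arrays the mean level of the photosynthesis genes was 9.74 and 7.78 and that of the storage and oil body genes 10.03 and 11.48. The part of seedling stage in the difference between these 2 arrays was not tested.

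Without wild type on ABA replicate 1 the differences in ahg1-1 changed sign for 3 genes, to -0.067 for AT3G17520, -0.40 for AT4G36600 and -0.44 for AT3G15670, and the median over the 9 genes was 0.15. Without replicate 2 of that group the median was 1.92. The difference of AT3G53040 ran from 1.86 to 3.002 over the 8 fits without 1 array.

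**Figure D4:**
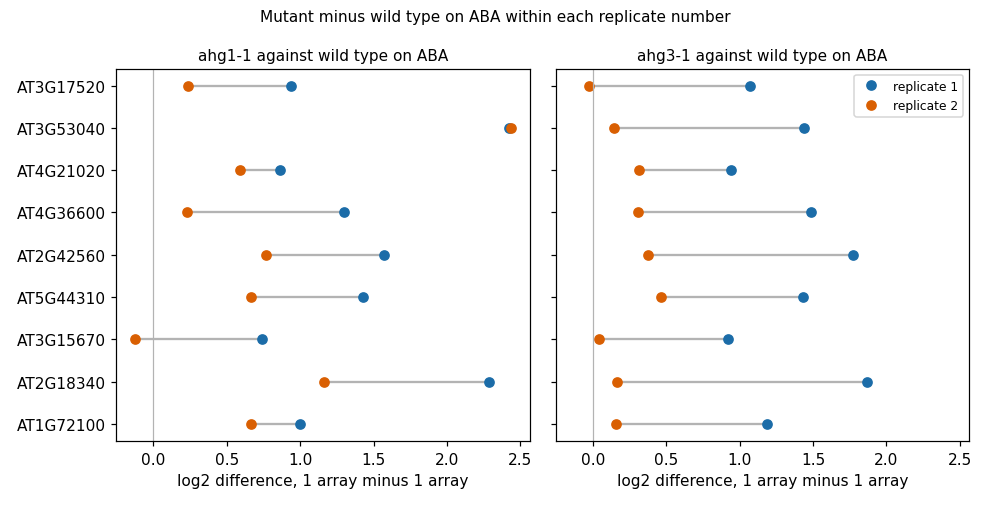
Log2 difference between 1 mutant array and the wild-type array of the same replicate number on ABA (horizontal axis) for the 9 LEA genes (vertical axis), with replicate 1 in blue and replicate 2 in orange, joined by a line. In ahg3-1 the differences lie between 0.92 and 1.87 within replicate 1 and between -0.02 and 0.46 within replicate 2, while AT3G53040 in ahg1-1 stands at 2.42 and 2.44.

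In ahg3-1 against wild type on ABA 0 of the 9 genes passed (limma, lowest adjusted p = 1.0 after rounding), again against 0% of all probe sets. At an unadjusted p below 0.05 lay 0 of the 9, against 0.0539% of all probe sets on the higher side, or 3 of the 9 with a block for the replicate number, against 2.67% of all probe sets in that fit. With the block 0 of the 9 passed too (limma, adjusted p = 0.878 for each), against 0% of all probe sets. All 9 means were higher in ahg3-1, between 0.48 and 1.07, with a median of 0.79 against 0.00 over all probe sets. Of the 9, 8 were higher within both replicates, against 30.8% of all probe sets.

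AT2G42560 had the largest mean difference in ahg3-1. It stood at 9.85 and 10.22 in ahg3-1, against 8.08 and 9.85 in wild type, a difference of 1.07 ± 0.66. The lower mutant array lay just above the higher wild-type array. AT2G18340 followed at 6.88 and 7.67, a difference of 1.02 ± 0.83, and AT5G44310 at 9.65 and 10.49, a difference of 0.94 ± 0.64, both with arrays that overlapped those of wild type.

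The remaining 6 genes differed by 0.90 or less. AT4G36600 stood at 11.12 and 12.26 in ahg3-1, a difference of 0.90 ± 0.81. AT3G53040 stood at 9.51 and 9.34, a difference of 0.79 ± 0.51, and was the one gene with the lower value on replicate 2. It and AT1G72100, at 10.39 and 10.45 with a difference of 0.67 ± 0.41, had no overlap with wild type. With AT2G42560 that made 3 of 9, against 7.39% of all probe sets with no overlap and ahg3-1 higher.

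AT4G21020 stood at 10.70 and 11.50 in ahg3-1, a difference of 0.63 ± 0.63. AT3G17520, at 11.95 and 12.17, differed by 0.52 ± 0.50 and AT3G15670, at 13.17 and 13.79, by 0.48 ± 0.73. The 95% intervals of all 9 genes, from the fit without a block, included 0, with upper bounds between 1.64 and 2.996.

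The difference in ahg3-1 lay mostly within replicate 1. There it had a median of 1.43 over the 9 genes, and within replicate 2 one of 0.16; the value within replicate 1 was the larger for 9 of 9 genes. Without wild type on ABA replicate 1 the median turned to -0.086 and 5 genes changed sign, AT2G18340 to -0.23, AT3G15670 to -0.26, AT3G17520 to -0.13, AT4G21020 to -0.086 and AT4G36600 to -0.26. The comparisons of ahg1-1 and ahg3-1 share the wild-type arrays on ABA, so the low replicate 1 of that group enters both.

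Set directly against each other, the mutants did not differ in any of the 9 genes by the test (limma, 0 of 9, lowest adjusted p = 1.0 after rounding), against 0% of all probe sets called as higher. At an unadjusted p below 0.05 lay 1 of the 9, AT3G53040, against 0.261% of all probe sets on the higher side, and with the replicate number as a block 0 passed (limma), against 0.0045% of all probe sets. Higher in ahg1-1 within both replicates were 3 of the 9, against 29.8%. AT3G53040 stood at 10.49 and 11.64 in ahg1-1 and at 9.51 and 9.34 in ahg3-1, so that its groups had no overlap, as in 11.3% of all probe sets with ahg1-1 higher. The difference was 1.64 ± 0.51, with an unadjusted 95% interval of 0.43 to 2.85, at 0.98 within replicate 1 and 2.29 within replicate 2. Without 1 array it ran from 1.07 to 2.21.

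The other 8 genes differed between the mutants by between -0.17 and 0.71, each with arrays that overlapped. AT2G18340 had the second largest value, 0.71 ± 0.83, with a 95% interval of -1.27 to 2.69. For AT3G17520 the difference was 0.06 ± 0.50, with an interval of -1.13 to 1.25, and for AT1G72100 it was 0.16 ± 0.41, with an interval of -0.81 to 1.13. These intervals, from the fit without a block, are wide, so similar means do not show that the mutants act alike on these genes.

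Ordered by group mean, all 9 genes ran from wild type without ABA through wild type on ABA to the mutants. Only 1 of the 9 had all 4 mutant arrays above both wild-type arrays on ABA. Replicate 1 of wild type on ABA was the lowest ABA array for 9 of 9. Without it AT3G17520, AT4G36600 and AT3G15670 changed sign in both mutants, and AT2G18340 and AT4G21020 in ahg3-1. In 7 genes ahg1-1 was the highest group and in 2, AT4G36600 and AT3G15670, ahg3-1 was. For 7 genes wild type without and with ABA, neighbours in this order, differed beyond the spread by limma's adjusted p. Over all probe sets 1.37% did. The steps from wild type on ABA to ahg3-1 or ahg1-1, and between the mutants, passed for 0 genes, against 0% of all probe sets.

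The 9 genes moved together over the arrays. Each correlated with the mean of the other 8 at a Pearson r between 0.954 and 0.999 over the 8 arrays. The distance between the 2 arrays without ABA and the 6 with it enters these values. Over the 6 ABA arrays alone r was between 0.889 and 0.992 for 8 genes and 0.724 for AT3G53040. All these values share their arrays and the shift between replicate numbers, and they are given as a description.

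The level of AT3G53040 relative to the 8 others differed between groups, with ABA in wild type as well as by genotype on ABA. Its level minus the mean of the 8 others, set to 0 at the mean of wild type on ABA, was 0.29 and -0.29 on the 2 wild-type arrays. It was 1.45 and 1.62 on the ahg1-1 arrays and 0.40 and -0.37 on the ahg3-1 arrays. Without ABA it was 1.46 and 1.74. Within an array the gene was thus higher relative to the other 8 in ahg1-1 than in wild type or ahg3-1 on ABA, with no overlap between the groups, which shows unequal change and not which of them changed. The gene was singled out after its values were seen, so this is no test. High values in ahg1-1 were not particular to it among LEA genes. AT3G22490, of another LEA group, stood at 6.43 and 8.63 in wild type on ABA, 9.66 and 10.83 in ahg1-1 and 8.91 and 9.07 in ahg3-1. Both ahg1-1 arrays lay above both arrays of each other group, with differences of 2.71 ± 0.72 from wild type and 1.25 ± 0.72 from ahg3-1 (limma, both adjusted p values 1.0 after rounding). M17, also of another group, differed by 1.60 ± 0.57 from wild type and by 1.14 ± 0.57 from ahg3-1, which it overlapped. Its difference from ahg3-1 lay within replicate 2 alone, at 2.32, against -0.05 within replicate 1.

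Beyond the 9 genes, those whose profile was most like the mean of the 9 were sought among 460 probe sets naming 1 gene and varying with an SD of at least 1 over the 8 arrays. Of these, 98 had a Pearson r above 0.9. The highest belonged to ATOEP16-2 (AT4G16160), a channel protein of the outer plastid envelope in seeds, with r = 0.9991 over 8 arrays. It stood at 4.93 and 5.17 without ABA, 9.68 and 11.58 in wild type on ABA, 11.51 and 12.33 in ahg1-1 and 11.12 and 11.65 in ahg3-1. Wild type on ABA replicate 1 was the lowest ABA array for this gene too.

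AT5G07330 followed with r = 0.9983, the dehydrin gene AT2G21490 with 0.9980, AT5G02580 with 0.9965, AT5G01300 with 0.9963 and AT2G28490, a vicilin-like storage protein, with 0.9961. Over the 6 ABA arrays these 6 had r between 0.968 and 0.989 with the mean of the 9. All 6 rose with ABA, by between 3.14 and 6.73 (limma, adjusted p between 0.00365 and 0.0132). They were ranked by a likeness that includes this contrast, so their rise is part of how they were chosen.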

How the data were processed

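Seedling RNA, carrying a biotin label, was measured on 1-colour arrays. The deposited values are log2 expression, 1 per probe set and array, made with RMA per the submitters' processing notes, a method that in general corrects background, normalizes quantiles and summarises each probe set; the version of RMA is not given in the sources used here. How many arrays there are limits the precision. Groups came from the sample titles, because the description field reads alike, as untreated wild type, in all 8 samples.

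Gene names came from the platform annotation, updated through the TAIR10.1 gene table; of the probe sets, 13072 named 1 gene, 503 several and 8671 none. limma 3.58.1 in R 4.3.3 fitted the 4 group means to all 22246 probe sets with 4 residual degrees of freedom and no filter. The 4 contrasts were tested two-sided with Benjamini-Hochberg adjustment, at 0.05. The fit was tested on simulated data with known differences and noise drawn independently for each array. The simulation held no shift shared by arrays of the same replicate number, so it does not show how the p-values behave under one.

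The replicate number was left out of this model because the labels do not say that it marks a shared culture or day. It was tried as a block among the alternatives, and same-numbered arrays deviated together in all 6 pairs of groups (r between 0.50 and 0.84). The other alternatives were the compared arrays alone, cyclic loess, no dim probe sets, a trended robust prior and leaving out each array. Named genes are the 9 LEA genes, called or lowest-p members of fixed lists, and the 6 most similar profiles. COR15B, COR47 and the other named list genes beyond that were picked with their values in view. Both members and lists were chosen with earlier results of these data known.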

Additional observations from a re-analysis of the deposited data

How the results depend on the processing

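Cyclic loess, leaving out dim probe sets and a trended robust prior each left 7 of the 9 LEA genes called with ABA. In these settings, with the replicate block and with the compared arrays alone, 0 of the 9 genes changed sign in any comparison. All 9 passed the filter on dim probe sets, which kept means over all 8 arrays of at least 5.98. Most of those arrays carried ABA, where the 9 genes were high. Passing, and the 7 calls kept in that setting, therefore follow in part from the ABA difference itself. With the replicate number as a block, 2799 probe sets were called with ABA against 305 without it, 3 in ahg1-1 against wild type and 1 in ahg1-1 against ahg3-1. The block changed no call of the 9 genes other than AT2G42560 and AT2G18340. With only the 4 arrays compared, 33 probe sets and 2 of the 9 genes were called with ABA. Leaving out 1 array gave between 51 and 388 probe sets and between 2 and 9 of the 9 genes with ABA, with a median between 5.08 and 6.62. The medians ran from 0.15 to 1.92 in ahg1-1, from -0.086 to 1.36 in ahg3-1 and from -0.38 to 0.58 between the mutants. The cause of these shifts was not tested.

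Single genes changed sign only in fits without 1 array. In ahg1-1 against wild type the differences then ran from -0.067 to 1.24 for AT3G17520, from -0.40 to 1.92 for AT4G36600 and from -0.44 to 1.05 for AT3G15670. In ahg3-1 they ran from -0.13 to 1.17 for AT3G17520, from -0.086 to 1.35 for AT4G21020, from -0.26 to 2.05 for AT4G36600, from -0.26 to 1.23 for AT3G15670 and from -0.23 to 2.27 for AT2G18340. Between the mutants they ran from -0.24 to 0.37 for AT3G17520, from -0.48 to 0.68 for AT4G21020, from -0.76 to 0.49 for AT4G36600 and from -0.38 to 0.58 for AT2G42560. The ranges there were -0.42 to 0.63 for AT5G44310, -0.49 to 0.14 for AT3G15670 and -0.22 to 0.54 for AT1G72100. With 2 arrays per group, the differences between mutants and wild type seen here were not detectable after adjustment.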
